A study of Mus musculus with 15 samples.

Results

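Fluticasone furoate (FF) was compared with vehicle in RAW264.7, a murine line of macrophage-like cells, by one-colour Agilent expression arrays. The comparison rests on 6 of the 15 arrays of the series, the 3 labelled FF and the 3 labelled with the solvents ethanol and DMSO, and on the noncontrol probes of those arrays. FF was added at 100 nM 1 h before lipopolysaccharide (LPS), which was left on the cells at 1 ug per ml for 16 h. The other 9 arrays are 3 each of dexamethasone (DEX) and of the compounds known only as VSG158 and VSG159, given at the same dose, and they entered the estimate of the spread. The LPS protocol is attached to all samples but those of the vehicle group mention nothing beyond the solvents, and the vehicle cells are taken to have received LPS. The labels do not say which solvent carried FF. They number 3 replicates a group, the series text speaks of duplicates, and nothing says that replicates were separate cultures, so the p-values measure the spread between these samples, which may be technical.

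FF is a synthetic glucocorticoid with a furoate ester and a fluoromethyl thioester, used by inhalation and as a nasal spray. Glucocorticoids bind the glucocorticoid receptor (Nr3c1), which is held by heat shock proteins and the FKBP cochaperones in the cytoplasm and, once it holds a ligand, moves to the nucleus, where it binds response elements and raises genes such as Fkbp5 and Tsc22d3. It also lowers genes driven by NF-kB, AP-1 and interferon regulatory factors. LPS, a bacterial cell wall component, acts on macrophages through Toll-like receptor 4 and induces cytokines, chemokines, nitric oxide synthase and, through secreted interferon beta, the interferon-stimulated genes.

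Signals are given on a log2 scale relative to the array, where 0 is the 75th percentile of its noncontrol probes and 1 unit is a 2-fold difference. That percentile lay at a processed signal of 695 to 839 on the vehicle arrays and of 804 to 940 on the FF arrays. Between 46.4% and 50.3% of noncontrol spots were well above background with vehicle and between 48.0% and 49.6% with FF, and no spot was saturated. Pairs of arrays of 1 group correlated at 0.987 to 0.991 for both groups. All 12 macrophage markers listed were measured. Of osteoclast markers, a cell type of the same lineage, 7 of 8 were measured. Fewer of the other types' markers could be tested: 3 of 8 neutrophil, 4 of 8 T cell and 3 of 8 B cell markers. The counts were 4 of 8 for dendritic cells, 2 of 8 for fibroblasts, and 2 of 8 for epithelial and endothelial cells. Of those not tested, Trac (T cell) and Igkc and Ighm (B cell) were not found by name on the array. The others were not well above background on at least 2 of 3 arrays of any group. The number of arrays, 3 a group, limits the precision.

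All vehicle arrays lay on 1 slide and all FF arrays on the other, so slide and treatment cannot be told apart in the direct comparison. The only group on both slides was VSG159, with replicates 1 and 2 beside the vehicle arrays and replicate 3 beside the FF arrays. For that treatment, replicate 3 differed from the mean of the other two by a median of 0.35 in size over all genes, against 0.45 between FF and vehicle. At the 95th percentile the order was the other way, 2.31 against 1.92, and 3002 genes differed by over 1 in VSG159. The VSG159 value sets 1 array against a mean of 2, and the FF value a mean of 3 against a mean of 3. The VSG159 value therefore holds more array noise, and the sizes are not directly comparable. The difference within VSG159, in which slide and a single replicate cannot be told apart, is given beside the results as the VSG159 slide difference.

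In the fit without slide, 8238 of 19506 genes were called (limma, Benjamini-Hochberg adjusted p under 0.05), which is 42.2% of those tested: 4070 genes were higher with FF (20.9%) and 4168 lower (21.4%). At least 2-fold calls numbered 1706 higher and 1530 lower, and at least 8-fold calls 100 and 122. The 3 FF arrays did not overlap the 3 vehicle arrays for 11167 genes, or 57.2%. Over all genes the median change was -0.05. With slide as a fixed block, which ties FF to vehicle through VSG159 replicate 3 alone, 5428 of the 8238 calls remained in the same direction, and 2712 of the 3236 calls of at least 2-fold. A fit with slide and the array's position on it kept 1048 calls, 987 of them at least 2-fold, and scaling to the array median kept 4675. An array's median lay near the lowest signal counted as well above background. In log2 processed signal it was 5.18 against 5.56 on vehicle replicate 1 and 4.85 against 4.69 on replicate 2. Median scaling therefore rests on signals near background, a limit wherever it is given below. Of the 5002 calls under 2-fold, 2716 remained with slide as a fixed block, 1541 with median scaling and 61 with slide and position. Smaller changes were lost more often than larger ones in each of these fits. Counts over gene lists below are to be read beside the counts over all 19506 genes. Those called higher and lower were 4070 and 4168 without slide and 3088 and 4271 with slide as a fixed block. They were 2625 and 2091 with median scaling, and 621 and 441 with slide and position.

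Among genes well above background on all 6 arrays, the largest rise was that of haptoglobin (Hp), a haemoglobin-binding acute-phase protein (probe at chr8:112099045-112099104, mm9). Its signal was -2.77, -2.38 and -2.41 on the vehicle arrays and 4.48, 4.76 and 4.53 on the FF arrays. The groups lay far apart, and Hp rose by 7.11 ± 0.19 (log2 change ± SE, n = 3 arrays a group), or 138-fold (limma adjusted p = 6e-10). The largest fall among them was that of Rsad2, which encodes the antiviral enzyme viperin (chr12:27127859-27127918, mm9). Rsad2 stood at 7.69, 7.76 and 7.85 with vehicle and at 1.17, 1.12 and 1.24 with FF. All FF arrays lay below all vehicle arrays, a fall of 6.59 ± 0.27 or 96.5-fold (limma adjusted p = 7.17e-09). Their VSG159 slide differences were 0.57 for Hp and 0.15 for Rsad2.

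The other 11 of the 12 largest rises ranged from 4.74 to 3.63. Thymidine kinase 1 (Tk1), the salvage enzyme of thymidine, was at -1.86, -1.55 and -1.50 with vehicle and at 2.91, 3.27 and 3.14 with FF, a rise of 4.74 ± 0.12. Cyclin A2 (Ccna2) rose by 4.47 ± 0.19 and the ribonucleotide reductase subunit Rrm2 by 4.44 ± 0.17, followed by D17H6S56E-5 (4.23 ± 0.13) and the WAP domain protein gene Wfdc21 (3.95). Fbxo5, an inhibitor of the anaphase-promoting complex, rose by 3.89, the recombination gene Rad51ap1 by 3.82 (another of its probes changed by -1.07) and Dut, which removes dUTP, by 3.78. Spermidine synthase (Srm) rose by 3.80, Pimreg by 3.71 and the collagenase gene Mmp8 by 3.63. After Rsad2, the interferon-stimulated gene Ifit2 fell by 6.12 ± 0.16, Cmpk2 by 5.46 ± 0.15 and Mx1 by 5.00 ± 0.15. The alarmin Il33 fell by 5.35 ± 0.26, the chemokine Ccl12 by 4.91 ± 0.12, Ifit3b by 4.68 and the costimulatory receptor Tnfrsf9 by 4.53 ± 0.21. Dok7, an adaptor known from the neuromuscular junction, fell by 5.13 ± 0.16, and the transglutaminase Tgm1 by 4.26 ± 0.19.

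**Figure D1:**
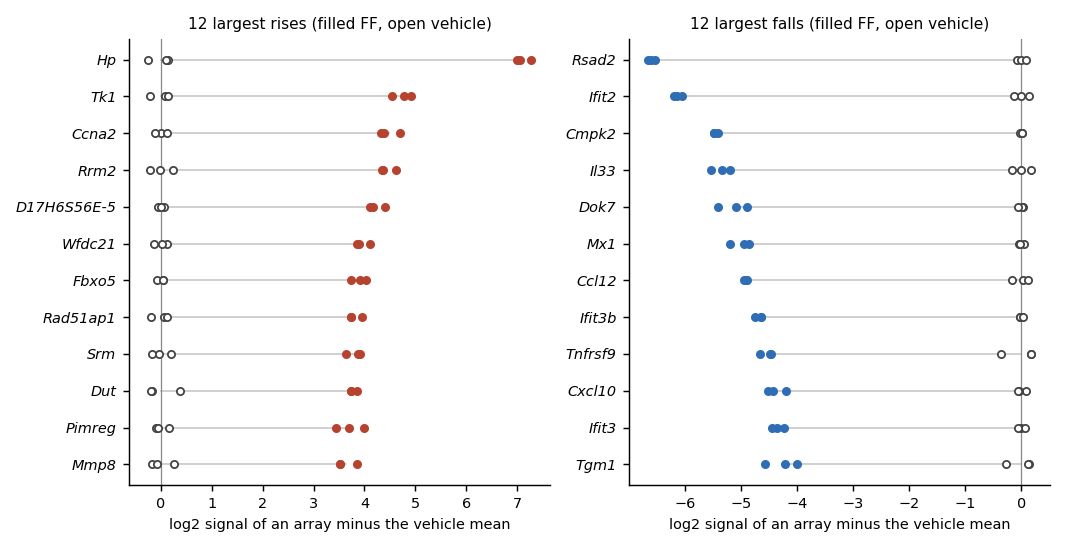
The log2 signal of each array minus the vehicle mean is plotted for the 12 largest rises (left) and falls (right) among genes well above background on all 6 arrays; open circles are the 3 vehicle arrays and filled circles the 3 FF arrays. Every gene shown was selected for groups that do not overlap, from Mmp8 at 3.63 to Hp at 7.11 and from Tgm1 at -4.26 to Rsad2 at -6.59.

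Some genes were well above background on all 3 arrays of 1 group and on none of the other. For these the change is a lower bound, the bright group's mean over a floor that is, on each dim array, the lowest signal counted as well above background, or the probe's own signal where that is higher. Such bounds exist for 216 genes brighter with FF and 211 dimmer. The largest were at least 94.6-fold higher for Arl14epl, at least 71.5-fold higher for the serpin Serpina3g and at least 27.2-fold higher for the mitotic kinase Pbk. In the other direction, the matrix protein gene Tnc was at least 45-fold lower, the keratin Krt23 at least 17.2-fold and arginase 1 (Arg1) at least 15.8-fold. Interferon beta (Ifnb1) was at least 8.1-fold lower. Its signal was -1.55, -1.42 and -1.72 with vehicle, and at -6.66, -6.89 and -6.98 it was not well above background on the FF arrays. Hepcidin (Hamp), the hormone that removes the iron exporter ferroportin, was at least 6.87-fold lower.

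Among 25 measured genes listed as targets of the glucocorticoid receptor, 8 rose, 12 fell and 5 were not called, with a median change of -0.38. Over all genes 20.9% were called higher and 21.4% lower. With median scaling 5 were called higher and 5 lower, against 2625 and 2091 of all 19506 genes. With slide as a fixed block 4 were called higher and 10 lower, against 3088 and 4271 of all genes. Fkbp5, a cochaperone that lowers the receptor's affinity for its ligand, was at 1.17, 0.98 and 1.35 with vehicle and at 4.50, 4.68 and 4.82 with FF (probe at chr17:28536060-28536119, mm9). The FF arrays were all higher, by 3.50 ± 0.13 or 11.3-fold (limma adjusted p = 3.98e-09), and a second probe rose by 3.09. Angptl4, an inhibitor of lipoprotein lipase, rose by 3.03 ± 0.25. The efferocytosis receptor Mertk was at -0.63, -0.68 and -0.63 with FF and well above background on 1 of 3 vehicle arrays, at -3.66, -5.26 and -6.24, so the size of its difference is not settled. Lcn2, an iron-siderophore binding protein, rose by 0.83 ± 0.12.

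Other textbook targets moved little or downward. Tsc22d3, which encodes the anti-inflammatory protein GILZ, was at 2.44, 2.42 and 2.61 with vehicle and at 2.85, 2.95 and 2.99 with FF. The groups did not overlap, and the rise was 0.45 ± 0.11 (limma adjusted p = 0.00608). Klf9 rose by 0.56 ± 0.11. Neither call held with slide as a fixed block, where the changes were 0.32 (limma adjusted p = 0.23) and 0.30 (limma adjusted p = 0.223), or with median scaling. Per1 was at 3.13, 3.48 and 3.81 with vehicle and at 3.37, 3.12 and 3.11 with FF, overlapping values without a call (-0.27 ± 0.18). Dusp1, the phosphatase that inactivates p38 and JNK, was lower by 0.57 ± 0.13 (limma adjusted p = 0.00402), and the call was lost in the fixed-block fit (-0.32, limma adjusted p = 0.287). Zfp36, the mRNA decay factor tristetraprolin, fell by 1.41 ± 0.15, Rgs2 by 1.83 ± 0.11, Ddit4 by 1.88 ± 0.18 and annexin A1 (Anxa1) by 0.89 ± 0.11. The metallothionein Mt1 (0.01) and Cebpd (-0.04) were not called.

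Of 21 genes for the receptor, its chaperones and its coregulators, 8 rose and 7 fell, against 20.9% and 21.4% of all genes. With median scaling 3 were called higher, against 2625 of all 19506 genes. With slide as a fixed block 4 were called higher, against 3088 of all genes. The receptor gene Nr3c1 was at 3.08, 2.91 and 2.99 with vehicle and at 2.41, 2.49 and 2.43 with FF, a fall of 0.55 ± 0.13 (limma adjusted p = 0.00362) that was not called with median scaling (limma adjusted p = 0.191). Another Nr3c1 probe changed by -1.19. The cochaperone Fkbp4 rose by 1.48 ± 0.11 and the Hsp90 activator Ahsa1 by 0.79 ± 0.09. The chaperones Hspa8 and Hsp90aa1 fell by 1.15 ± 0.07 and 0.84 ± 0.10, and the coactivators Ncoa3 and Ncoa1 by 1.28 ± 0.16 and 0.71 ± 0.10, although another Ncoa3 probe changed by 0.03.

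The proinflammatory cytokines moved one way: 19 of 21 measured fell, 18 with slide as a fixed block, and none rose, with a median change of -1.54 against -0.05 for all genes. Interleukin 1 beta (Il1b), the inflammasome-released cytokine, stood at 7.74, 7.74 and 7.93 with vehicle and at 4.17, 4.08 and 4.01 with FF (probe at chr2:129190347-129190406, mm9). All FF arrays were lower, by 3.72 ± 0.15 or 13.2-fold (limma adjusted p = 4.76e-09). Il1a fell by 3.70 ± 0.18 and Il15, which sustains natural killer cells, by 3.39 ± 0.14. Il6 was at 5.77, 5.63 and 5.68 with vehicle and at 3.41, 3.43 and 3.47 with FF, a fall of 2.26 ± 0.12 or 4.79-fold. The fall of Tnf, an early cytokine of LPS responses, was far smaller: 5.09, 5.23 and 4.96 with vehicle and 4.74, 4.48 and 4.67 with FF. That is 0.46 ± 0.12 lower (limma adjusted p = 0.00688), and the call ended with slide as a fixed block (-0.54, limma adjusted p = 0.0694) and with median scaling. The members without a call were Lta and Tnfsf15. The median VSG159 slide difference of the list was 0.32, opposite in sign to its change with FF. That median was positive for all of the 32 gene lists but the lysosome genes (-0.006), so its sign is not particular to this list.

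Chemokines fell in 12 of 20 cases, with 1 call upward and a median of -0.75. Cxcl10, a T cell attractant induced by interferon, was at 6.57, 6.44 and 6.42 with vehicle and at 2.04, 1.96 and 2.28 with FF, a fall of 4.38 ± 0.21 or 20.9-fold. The monocyte attractant Ccl7 fell from 7.39, 7.40 and 7.34 to 4.34, 4.38 and 4.41, and the neutrophil attractant Cxcl2 by 1.31 ± 0.12. Ccl2, the main monocyte chemokine, was at 8.72, 8.82 and 8.72 with vehicle and at 8.23, 8.13 and 7.97 with FF. Its groups did not overlap, the fall was 0.64 ± 0.11, and the call ended with median scaling (limma adjusted p = 0.0965). The call upward was that of Cxcl14 (0.58 ± 0.17), which was lost with slide as a fixed block (0.21), without FF replicate 2 (limma adjusted p = 0.0817) and without vehicle replicate 3 (limma adjusted p = 0.0594), and its limma adjusted p ranged from 0.00978 to 0.787 over all alternatives.

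Of 19 inflammatory enzymes and related genes, 10 fell and 3 rose, with 6 called lower under median scaling. Inducible nitric oxide synthase (Nos2) was at 8.21, 8.32 and 8.36 with vehicle and at 5.62, 5.71 and 5.92 with FF, a fall of 2.55 ± 0.12. Cyclooxygenase 2 (Ptgs2) fell by 2.42 ± 0.21, from 7.78, 7.86 and 7.79 to 5.31, 5.40 and 5.46. Acod1, which makes itaconate, fell by only 0.67 ± 0.10, and its call ended with median scaling (limma adjusted p = 0.0805). Arginase 2 (Arg2) fell by 1.32 ± 0.14 beside the bound on Arg1 given above. The 3 that rose were 5-lipoxygenase (Alox5, 1.27 ± 0.13), its activating protein (Alox5ap, 0.65 ± 0.15), both of leukotriene synthesis, and the arginine transporter Slc7a2 (1.10 ± 0.12).

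Genes that restrain inflammation fell as well, in 13 of 18 cases, with 1 rise and a median of -0.87. Interleukin 10 (Il10) was at 3.08, 3.21 and 3.28 with vehicle and at 0.97, 1.15 and 1.03 with FF, a fall of 2.14 ± 0.10. Il18bp, a decoy for interleukin 18, fell by 1.92 ± 0.14, the checkpoint ligand Cd274 by 1.69 ± 0.11 and the cytokine signalling inhibitor Socs3 by 1.08 ± 0.10. The rise was that of Irak3, the inhibitory IRAK-M, by 1.12 ± 0.12.

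The Toll-like receptor pathway divided, with 6 rises, 11 falls (7 with median scaling) and 12 of 29 members without a call. Over all genes 20.9% were called higher and 21.4% lower. Tlr2 rose by 0.83 ± 0.12 while Tlr3, the receptor for double-stranded RNA, fell by 2.22 ± 0.13. The downstream kinase Ripk2 fell by 1.46 ± 0.12, the ubiquitin ligase Traf6 by 1.57 ± 0.15 and the kinase Tbk1 by 0.88 ± 0.12. NF-kB subunits and inhibitors fell in 11 of 16 cases, Rela by 0.65 ± 0.09, the inhibitor Nfkbie by 1.00 ± 0.14 and Nfkbiz by 1.05 ± 0.11. The nuclear inhibitor Nfkbid rose by 1.14 ± 0.24, beside a VSG159 slide difference of -0.92. With median scaling 4 of the 16 were called lower.

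Early-response factors fell in 16 of 23 cases. Atf3, a stress-induced repressor, was at 6.24, 6.50 and 6.30 with vehicle and at 3.34, 3.26 and 3.41 with FF, a fall of 3.01 ± 0.11, and Ier3 fell by 2.06 ± 0.08. Fos (-0.02), Egr1 (0.12) and Ier2 (0.04) were not called at this time, 16 h after LPS. Batf3, a factor of dendritic cell development, was at least 12.5-fold higher. Of 19 MAPK phosphatases and mRNA decay factors 11 fell and 1 rose. Dusp10 fell by 3.71 ± 0.15, Dusp5 by 2.71 ± 0.21, Dusp14 by 2.65 ± 0.10 and Dusp4 by 2.02 ± 0.10. These phosphatases act on p38, JNK or ERK, as Dusp1 does.

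Interferon-stimulated genes were the other large group that fell, with 39 of 40 measured antiviral effectors called lower and none higher (median -1.27). With slide as a fixed block 37 were called lower, with median scaling 34, and with slide and position 23. All 14 interferon-induced GTPases measured fell, in those fits 14, 14 and 8, with a median of -1.99, or -1.83 with Gbp9 at its bound. Of 23 genes of interferon signalling, 17 fell. The median VSG159 slide differences of these lists were 0.16, 0.13 and 0.27, opposite in sign to their median changes with FF. Nearly all gene lists had a positive value, whichever way they moved, so the sign is not particular to these.

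The promoters of these genes are shown because many hold the letters of the interferon-stimulated response element, the site of the factor complexes that interferon activates. The windows run from 250 bases before to 50 after a gene's start in RefSeq (GRCm38.p6), and GAAA followed after any 2 bases by a second GAAA was searched on both strands. It was found for 17 of 31 antiviral genes with a window (54.8%), 8 of 9 GTPases (88.9%) and 3 of 21 interferon signalling genes (14.3%), against 464 of 11694 tested genes with a window (3.97%) and 3.99% of all 27025 genes in the table. Of the genes called lower by at least 2-fold it was found for 79 of 947 (8.34%). In the stretches below, written on the gene's own strand, the capitals mark each match, which on that strand can read as the reverse complement. Isg15 and Igtp were chosen after the values were seen, because they hold the motif. A match describes letters and is no evidence of binding.
Rsad2, chr12:26456513-26456602, minus strand: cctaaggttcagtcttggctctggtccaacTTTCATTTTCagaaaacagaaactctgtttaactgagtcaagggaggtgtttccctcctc
Ifit3, chr19:34583343-34583432, plus strand: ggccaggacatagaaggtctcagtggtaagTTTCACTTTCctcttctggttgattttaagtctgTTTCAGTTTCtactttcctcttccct
Ifit1, chr19:34640755-34640844, plus strand: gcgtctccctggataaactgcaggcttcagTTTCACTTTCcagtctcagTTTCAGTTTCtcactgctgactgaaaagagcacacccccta
Isg15, chr4:156200837-156200926, minus strand: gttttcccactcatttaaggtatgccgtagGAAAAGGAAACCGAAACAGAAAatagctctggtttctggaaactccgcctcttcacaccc
Cxcl10, chr5:92349043-92349132, minus strand: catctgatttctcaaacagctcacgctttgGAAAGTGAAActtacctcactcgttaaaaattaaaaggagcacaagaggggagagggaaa
Gbp2, chr3:142620573-142620662, plus strand: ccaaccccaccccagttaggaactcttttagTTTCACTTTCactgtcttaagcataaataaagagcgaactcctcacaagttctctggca
Igtp, chr11:58199466-58199555, plus strand: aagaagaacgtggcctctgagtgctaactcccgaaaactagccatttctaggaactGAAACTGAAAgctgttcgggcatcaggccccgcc

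Among these genes, Ifit3 holds matches starting 156 and 122 bases before the start site and Ifit1 matches 104 and 85 bases before it. Ifit3 was at 5.43, 5.50 and 5.38 with vehicle and at 1.21, 0.98 and 1.08 with FF, a fall of 4.35 ± 0.12. Ifit1 was at 5.39, 5.24 and 5.33 with vehicle and at 1.98, 1.98 and 1.92 with FF, a fall of 3.36 ± 0.13 or 10.3-fold. The FF arrays lay below the vehicle arrays for both. Isg15, a ubiquitin-like modifier with 3 overlapping matches, fell less, by 1.49 ± 0.09 from 8.74, 8.89 and 8.97 to 7.27, 7.38 and 7.46. The guanylate-binding protein Gbp2 fell by 3.39 ± 0.14, from 3.16, 3.38 and 3.11 to -0.21, -0.22 and -0.10, the T cell-specific GTPase Tgtp2 by 4.02 ± 0.11 and the immunity-related GTPase Igtp by 2.12 ± 0.13. Among the transcription factors of the pathway, Irf1 was at 4.01, 4.07 and 4.03 with vehicle and at 1.83, 1.95 and 1.81 with FF, a fall of 2.17 ± 0.10. Irf7 was at 8.82, 8.93 and 9.02 with vehicle and at 8.26, 8.35 and 8.29 with FF. Its groups did not overlap but its change of -0.62 ± 0.23 was not called (limma adjusted p = 0.0518), and it was called in the fit of the 6 arrays alone (limma adjusted p = 0.0026). Ifitm3 (-0.21 ± 0.11) was the antiviral gene without a call.

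**Figure D2:**
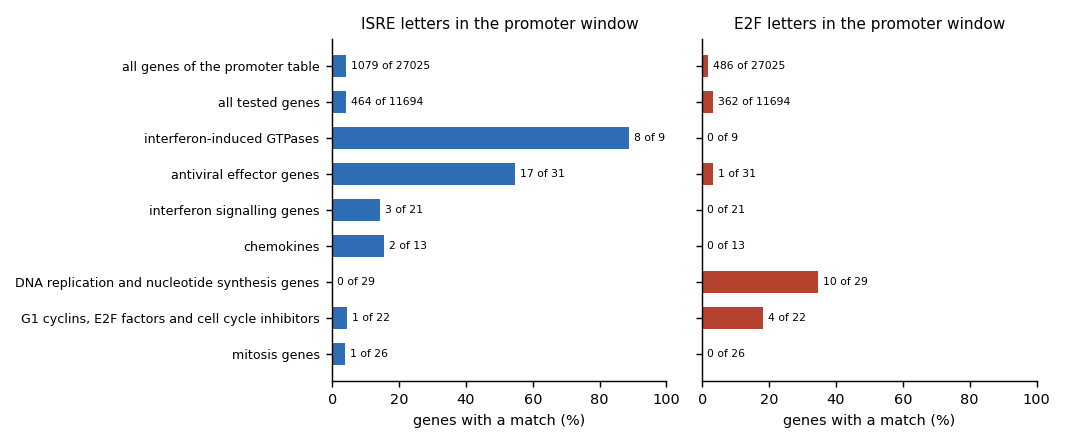
Bars give the percentage of genes whose promoter window holds the ISRE letters (left) or the E2F letters (right), by gene list and for all genes, with the counts printed beside each bar. The ISRE letters were found for 8 of 9 interferon-induced GTPases and 17 of 31 antiviral genes, and the E2F letters for 10 of 29 replication genes.

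Genes of antigen presentation on MHC class I fell in 14 of 17 cases, with a median change of -0.67. The peptide transporter Tap1 fell by 1.45 ± 0.10, H2-T22 by 1.60 ± 0.12 and the class I transactivator Nlrc5 by 1.15 ± 0.12. With slide as a fixed block or with median scaling 9 members were called lower. MHC class II was barely measured: 4 of 8 genes passed the filter, and Cd74 (-0.80 ± 0.16) and Ctss (-0.62 ± 0.09) were lower in calls that ended with median scaling. Of 16 costimulatory and adhesion molecules 9 fell and 3 rose. Cd83, an activation marker, fell by 3.25 ± 0.12 from 4.31, 4.22 and 4.28 to 0.94, 1.05 and 1.08, Cd40 fell by 2.10 ± 0.17 and Slamf7 by 3.21 ± 0.17. The integrin Itgam, an alpha chain of complement receptor 3, rose by 0.95 ± 0.09.

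Scavenger, efferocytosis and alternative activation genes had 9 falls, 4 rises and 8 of 21 members without a call. Among all genes 21.4% were called lower and 20.9% higher. The mannose receptor Mrc1 was at -0.76, -0.72 and -0.76 with vehicle and at -4.55, -3.90 and -4.35 with FF, where 2 of 3 arrays were well above background. It fell by 3.52 ± 0.18 and the beta-glucan receptor Clec7a by 3.25 ± 0.17. The receptor kinase Axl fell by 1.72 ± 0.17 while the signals of its relative Mertk were higher with FF, as given above. Clec10a, a galactose-type lectin, rose by 1.51 ± 0.21 and Trem2, a lipid receptor, by 0.85 ± 0.15. Of the 12 macrophage markers 2 rose and 6 fell (3 with median scaling): Csf1r, the receptor for the macrophage growth factor, rose by 1.14 ± 0.21 (VSG159 slide difference -0.66) and the Fc receptors Fcgr1 and Fcgr3 fell by 1.65 ± 0.10 and 0.96 ± 0.11, while Cd68 (-0.02) and Adgre1 (-0.24) were not called.

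Acute-phase and complement genes rose in 8 of 15 cases, 5 with slide as a fixed block, and fell in 3. Besides Hp and Serpina3g, ceruloplasmin (Cp), a copper-carrying ferroxidase, rose by 2.97 ± 0.12 from 2.09, 2.38 and 2.07 to 5.23, 5.19 and 5.02, and Serpina3f, well above background on 2 of 3 vehicle arrays, rose by 4.38 ± 0.14. The other Cp probes changed by -0.12 to 2.74. The 3 that fell were complement genes, the receptor C3ar1 falling by 2.17 ± 0.17, factor B (Cfb) by 1.36 ± 0.16 and C3 by 0.89 ± 0.11. Among 20 protease and coagulation genes 9 fell and 4 rose, against 21.4% and 20.9% of all genes. With slide as a fixed block 2 were called higher. The collagenases diverged: Mmp8 rose, while Mmp13 fell by 5.39 ± 0.26 to signals of -4.44, -3.54 and -3.66, well above background on 2 of 3 FF arrays. The gelatinase Mmp9 rose by 0.84 ± 0.09, and the inhibitor Timp1 fell by 3.80 ± 0.24 from 5.62, 5.64 and 5.76 to 1.79, 2.06 and 1.79.

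Genes of DNA replication and nucleotide synthesis formed the main group that rose, with 29 of 35 called higher, none lower and a median of 1.88. Of 32 mitosis genes 29 were called higher and none lower, with a median of 2.24, or 2.08 with Ttk, Kif11 and Pbk at their bounds. With slide as a fixed block the counts called higher were 27 and 27, with median scaling 27 and 28, and with slide and position 16 and 18. In the fixed-block fit 1 mitosis gene was called lower. The median VSG159 slide differences were 0.06 and 0.25, of the same sign as the median changes with FF. Nearly all gene lists had a positive value, whichever way they moved. The replicative helicase subunit Mcm2 was at -0.77, -0.81 and -0.94 with vehicle and at 2.04, 1.94 and 1.86 with FF, a rise of 2.78 ± 0.09. The mitotic kinase Plk1 rose by 3.22 ± 0.13 from -1.43, -1.41 and -1.07 to 1.82, 2.10 and 1.82, and Cdc20, an activator of the anaphase-promoting complex, rose by 2.53 ± 0.11. The proliferation marker Mki67 was at 0.67, 0.35 and 0.81 with vehicle and at 1.84, 2.11 and 1.93 with FF, all higher, by 1.35 ± 0.16. The arrays were of cell populations, and more cycling cells cannot be told apart from more RNA of these genes per cell.

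Promoters of replication genes are shown for the letters bound by E2F factors, which drive genes of the G1 to S transition. TTTCCCGC or TTTGGCGC, on either strand, was found for 10 of 29 replication genes with a window (34.5%), 4 of 22 G1 genes (18.2%) and 0 of 26 mitosis genes, against 362 of 11694 tested genes (3.1%). It was found for 64 of 1187 genes called higher by at least 2-fold (5.39%). The ISRE letters were found for 0 of 29 replication genes. The capitals mark the matches, and Mcm5 and Cdc6 were chosen after the values were seen because they hold the motif.
Mcm6, chr1:128359735-128359845, minus strand: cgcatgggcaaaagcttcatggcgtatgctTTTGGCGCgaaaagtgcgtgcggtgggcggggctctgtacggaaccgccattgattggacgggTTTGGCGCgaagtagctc
Mcm5, chr8:75109330-75109419, plus strand: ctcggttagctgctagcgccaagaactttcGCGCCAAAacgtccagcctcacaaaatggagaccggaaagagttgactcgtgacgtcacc
Cdc6, chr11:98907983-98908072, plus strand: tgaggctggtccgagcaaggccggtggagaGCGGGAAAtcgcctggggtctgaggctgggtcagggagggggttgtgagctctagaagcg

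The Mcm6 stretch holds matches starting 110 and 47 bases before the start site. Mcm6, a subunit of the same helicase, was at 2.06, 1.94 and 2.04 with vehicle and at 4.82, 5.22 and 5.13 with FF, a rise of 3.04 ± 0.10 or 8.24-fold. Mcm5 rose by 2.33 ± 0.12 and the helicase loader Cdc6 by 2.02 ± 0.13, from -1.67, -1.28 and -1.26 to 0.47, 0.77 and 0.62. The groups did not overlap for these 3 genes.

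G1 regulators moved both ways, 12 up and 9 down of 26, against 20.9% and 21.4% of all genes. With slide as a fixed block 9 were called higher and 9 lower, with median scaling 11 and 8, and with slide and position 3 and 4. The list's median change was 0.13, and -0.05 with slide and position. Cyclin D1 (Ccnd1) was at 1.01, 0.96 and 0.73 with vehicle and at 2.55, 2.55 and 2.52 with FF, a rise of 1.64 ± 0.09, and cyclin E1 (Ccne1) rose by 1.57 ± 0.11. The repressive E2F factor E2f8 rose by 2.43 ± 0.16. The inhibitor p21 (Cdkn1a) was at 4.43, 4.73 and 4.43 with vehicle and at 2.57, 2.55 and 2.47 with FF, a 3.99-fold fall, although another probe changed by -0.41. The inhibitor Cdkn2d fell by 1.54 ± 0.11, the growth arrest gene Gadd45b by 1.92 ± 0.12 and Ccng2 by 2.30 ± 0.16.

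Of 29 genes of Myc, polyamines and ribosome biogenesis, 22 rose and 6 fell, with a median of 1.57. Srm was at 0.17, -0.07 and -0.21 with vehicle and at 3.88, 3.60 and 3.83 with FF. The snoRNP proteins Dkc1 and Nop56 rose by 3.59 ± 0.16 and 2.46 ± 0.09, and the ribosome export factor Rrp12 by 2.09 ± 0.09. Those that fell included Myc itself, at 1.06, 1.08 and 1.14 with vehicle and at -1.08, -1.08 and -1.26 with FF. Its fall was 2.23 ± 0.24 (limma adjusted p = 1.19e-05), and another Myc probe changed by -0.47. The Myc antagonists Mxd1 and Mxi1 fell by 3.30 ± 0.18 and 2.25 ± 0.10, and ornithine decarboxylase (Odc1), the enzyme before Srm in polyamine synthesis, by 1.32 ± 0.11. The E-box letters CACGTG, which Myc and its partners recognise, were found for 5 of 23 of these genes with a window (21.7%), against 8.09% of all genes in the table, 10.8% of tested genes and 14.7% of those called higher by at least 2-fold.

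**Figure D3:**
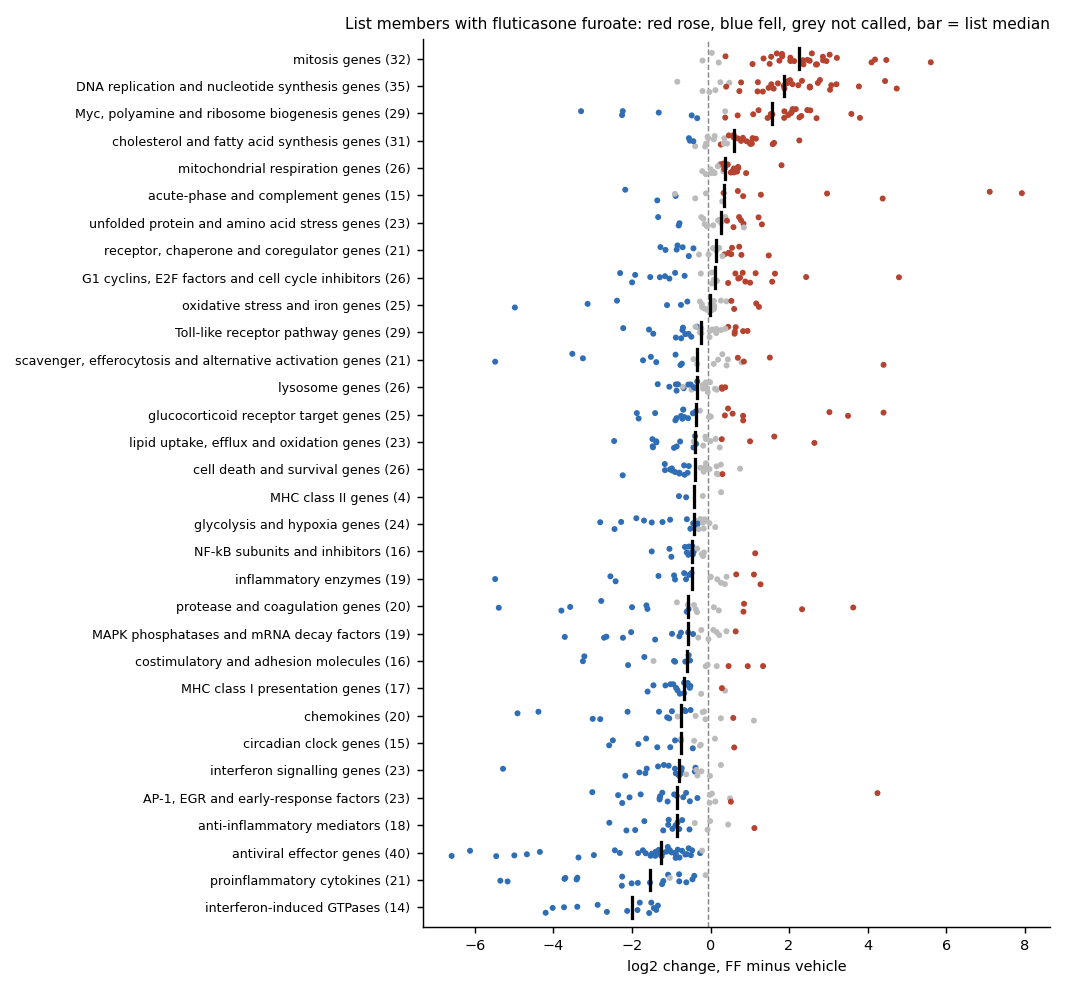
Each point is the log2 change (FF minus vehicle) of 1 measured member of a gene list, with the number of members in brackets; red points were called higher, blue lower, grey not called, black bars are list medians and the dashed line is the median of all genes. Mitosis (median 2.24) and replication (1.88) genes lie highest, and interferon-induced GTPases (-1.99) and proinflammatory cytokines (-1.54) lowest.

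Lipid genes divided between synthesis and efflux. Of 31 cholesterol and fatty acid synthesis genes 18 rose and 3 fell (1 with slide as a fixed block, 0 with median scaling), with a median of 0.59. Fatty acid synthase (Fasn) was at 2.96, 2.41 and 2.53 with vehicle and at 4.82, 4.93 and 4.92 with FF, a rise of 2.26 ± 0.13, and acetyl-CoA carboxylase (Acaca) rose by 1.15 ± 0.09 and the desaturase Scd1 by 1.62 ± 0.15. In lipid uptake and efflux 12 of 23 genes fell (7 with median scaling) and 4 rose (2 with slide as a fixed block). Of all genes 21.4% fell and 20.9% rose in the fit without slide. The cholesterol exporters Abca1 and Abcg1 fell by 2.45 ± 0.20 and 1.48 ± 0.12 and the lipid droplet protein Plin2 by 1.47 ± 0.10. The fatty acid-binding protein Fabp4 rose by 2.64 ± 0.13, from 3.74, 3.51 and 3.80 to 6.28, 6.29 and 6.42.

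Glycolysis and hypoxia genes fell in 14 of 24 cases, 8 with median scaling, with none higher. Vegfa was between 3.89 and 4.09 with vehicle and at 1.78, 1.71 and 1.67 with FF, a fall of 2.28 ± 0.12. The peptide hormone Adm fell by 2.81 ± 0.18, Ndrg1 by 1.89 ± 0.11 and the mitophagy receptor Bnip3 by 1.70 ± 0.12. Mitochondrial respiration genes rose in 17 of 26 cases, by small amounts (median 0.36). With median scaling 6 were called higher, and with slide as a fixed block 10 were called higher and 1 lower. The coactivator Ppargc1b rose most, by 1.81 ± 0.13, and cytochrome c1 (Cyc1) rose by 0.91 ± 0.12.

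Of 25 genes of iron and oxidative stress 4 rose, 6 fell and 15 were not called, a share of calls close to that over all genes (42.2%). Haem oxygenase 1 (Hmox1) was at 7.87, 7.97 and 7.98 with vehicle and at 5.46, 5.56 and 5.66 with FF, a fall of 2.38 ± 0.11, and the transferrin receptor Tfrc rose by 1.23 ± 0.11, as did the superoxide dismutase Sod2 (1.16 ± 0.10). Of 23 genes of the unfolded protein and amino acid responses 7 rose and 3 fell, a like share: the serine and folate enzymes Phgdh and Shmt2 rose by 1.22 ± 0.08 and 1.31 ± 0.10, Ppp1r15a, which restores translation, fell by 1.33 ± 0.09, and Atf4 was not called (-0.18 ± 0.10). For the lists that follow, 21.4% of all genes were called lower and 20.9% higher, and 2091 of 19506 were called lower with median scaling. Lysosome genes fell in 12 of 26 cases, 5 with median scaling, among them the cholesterol transporters Npc1 and Npc2 (-1.05 ± 0.12 and -0.86 ± 0.10). Cell death and survival genes fell in 13 of 26 cases, 8 with median scaling, the proapoptotic Bcl2l11 by 2.24 ± 0.11 and the antiapoptotic Mcl1 by 1.16 ± 0.11, and caspase 1 (Casp1) by 0.99 ± 0.07. Of 15 clock genes 9 fell, the repressors Bhlhe40 by 2.58 ± 0.16 and Nr1d2 by 2.49 ± 0.25, and 1, Nfil3, rose (0.60 ± 0.11).

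Letters of 2 other factors were searched in the same windows. The glucocorticoid response element in full, AGAACA and TGTTCT with any 3 bases between, was found for 3 of 27025 genes, 1 of them Sgk1, a kinase gene of the receptor's target list, in 1 of its 6 promoters. It is printed for that match, although Sgk1 was named after its values were seen and its rise of 0.37 ± 0.12 (limma adjusted p = 0.0331) came with overlapping groups. That call ended with slide as a fixed block (limma adjusted p = 0.192) and on leaving out FF replicate 1 (0.11) or 2 (0.14) or vehicle replicate 2 (0.127) or 3 (0.0689), and over all alternatives its limma adjusted p ranged from 0.00356 to 0.399. The NF-kB letters, GGGA and TTCC with any 2 bases between, were found for 3 of 16 proinflammatory cytokine genes, Il6 among them, and 4 of 13 chemokine genes (30.8%), against 1.63% of all genes. No match says only that these letters are not in this window.
Sgk1, chr10:21993671-21993760, plus strand: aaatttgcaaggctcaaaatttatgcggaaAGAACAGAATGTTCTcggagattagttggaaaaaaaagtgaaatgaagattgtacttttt
Il6, chr5:30013024-30013113, plus strand: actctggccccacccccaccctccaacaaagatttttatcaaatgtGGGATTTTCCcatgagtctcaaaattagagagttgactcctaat

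The dependence on slide was followed for 27 key genes, of which 24 were called without a slide term. With slide as a fixed block 20 of the 24 kept their calls, and Tsc22d3, Klf9, Dusp1 and Tnf, with changes of 0.57 or less in size, lost them. With slide as a random block 22 kept them. With median scaling 17 kept them, and with slide and position in the model 14. None of the 24 changed direction in these fits. Over all alternatives tried, the limma adjusted p ranged from 0.00216 to 0.819 for Tsc22d3, 0.000801 to 0.373 for Klf9, 0.00196 to 0.473 for Dusp1 and 0.00384 to 0.584 for Tnf. It ranged from 3.93e-05 to 0.846 for Nr3c1, 0.000148 to 0.38 for Ccl2, 4.49e-05 to 0.497 for Acod1 and 0.00041 to 0.327 for Irf7.

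**Figure D4:**
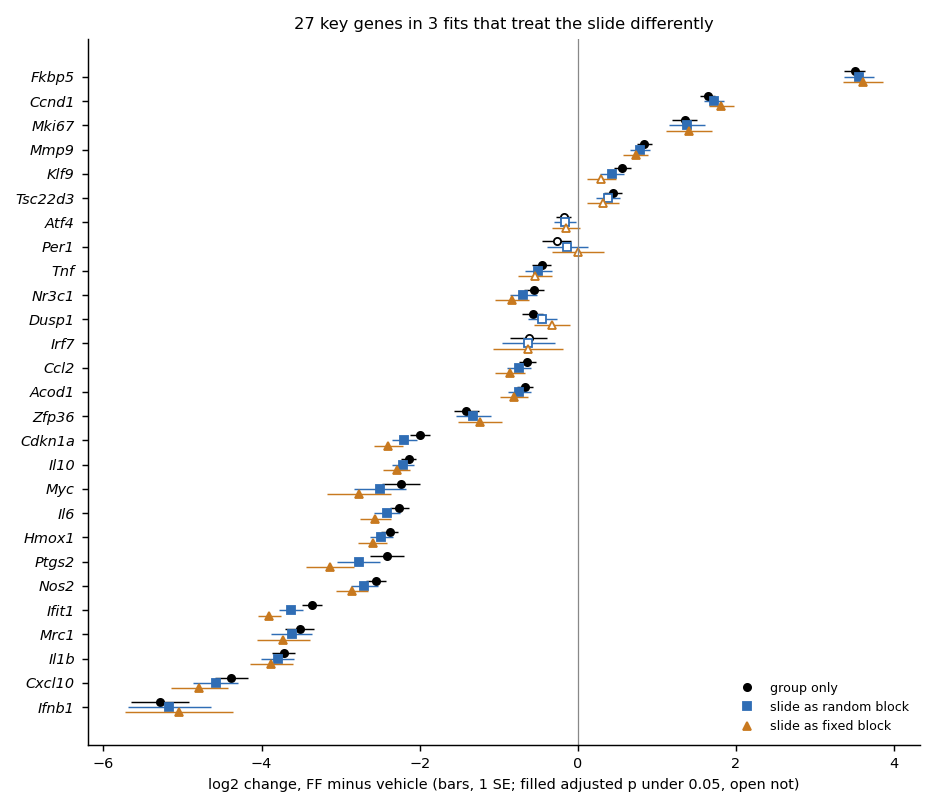
The log2 change of 27 key genes (FF minus vehicle, bars 1 SE) is shown for the fit by group (circles), with slide as a random block (squares) and with slide as a fixed block (triangles); filled symbols were called at an adjusted p under 0.05. The called changes, from Fkbp5 (3.50) to Ifnb1 (-5.28), keep their sign, and the genes with open symbols are among those with the smallest changes.

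FF was set beside DEX, a glucocorticoid without the furoate and thioester groups, at the same dose, time and slide, to ask where the 2 steroids differed. Of 19506 genes 807 were called (4.14%), 362 higher with FF (1.86%) and 445 lower (2.28%), of which 124 differed by at least 2-fold. The comparison is fragile: leaving out 1 array at a time gave 131 to 641 calls, and slide and position in the model 72. Median scaling, which rests on signals near background, gave 2. Among genes well above background on all arrays of both groups, the 6 lowest against DEX were Il19, Il1b, Il1a, Il33, Cxcl3 and Dusp5. Il1b averaged 4.08 with FF and 5.74 with DEX, a difference of -1.66 ± 0.15 (limma adjusted p = 0.000886), and was still called under each alternative tried. Il1a differed by -1.64 ± 0.18, the interleukin 10 relative Il19 by -1.67 ± 0.21 and Il33 by -1.54 ± 0.26. In the mean over its probes Il33 differed by -1.25 without a call (limma adjusted p = 0.0664). The chemokine Cxcl3 differed by -1.49 ± 0.17 and the phosphatase Dusp5 by -1.36 ± 0.21, or -0.67 in the mean over its probes. Of the key genes, Il6 differed by -1.25 ± 0.12, Cxcl10 by -1.34 ± 0.21 and Nos2 by -1.10 ± 0.12. Cxcl10 was not called in the mean over its probes (-0.79, limma adjusted p = 0.131). With slide and position in the model, neither Cxcl10 (limma adjusted p = 0.216) nor Nos2 (limma adjusted p = 0.0674) was called. Il33 (limma adjusted p = 0.141) and Dusp5 (limma adjusted p = 0.124) were not called in that fit either. Proinflammatory cytokines were lower with FF in 6 of 21 cases and higher in none.

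By the same rule the 6 highest against DEX were the histone genes H2ac4 (1.48 ± 0.17), H1f5 (1.32 ± 0.14) and H2bc18 (1.29 ± 0.17), Depdc1a (1.39 ± 0.32), D17H6S56E-5 (1.27 ± 0.13) and the replication factor Mcm10 (1.26 ± 0.17). The call of Depdc1a was lost on leaving out any FF array or DEX replicate 1 or 3, with limma adjusted p of 0.0359 to 0.138 over the arrays left out. With slide and position in the model Depdc1a (limma adjusted p = 0.314), H1f5 (0.101), H2bc18 (0.185), D17H6S56E-5 (0.0598) and Mcm10 (0.193) were not called. The mean over the probes of H2bc18 differed by 0.20 without a call. Replication genes were higher with FF in 20 of 35 cases and mitosis genes in 14 of 32, with none lower in either list, and glycolysis and hypoxia genes were lower in 9 of 24. The receptor target Fkbp5 differed by 0.00 ± 0.13 (limma adjusted p = 0.99), with Klf9 at 0.02 ± 0.11, Tnf at -0.16 ± 0.12, Ccl2 at -0.16 ± 0.11 and Ifit1 at -0.20 ± 0.13. None of these 5 was called, which does not show that the steroids act alike on them: the 95% confidence interval of the difference was -0.29 to 0.30 for Fkbp5, -0.23 to 0.26 for Klf9, -0.41 to 0.10 for Tnf, -0.40 to 0.09 for Ccl2 and -0.49 to 0.08 for Ifit1. The DEX arrays lay at positions 5 to 7 of the slide and the FF arrays at positions 2 to 4.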

How the data were processed

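The authors used Feature Extraction 10.7.3.1 (protocol GE1_107_Sep09, array design on mm9), per the file headers, and deposited a processed signal intensity per spot, background-subtracted and detrended within the array, beside raw and background intensities. They also deposited a table of log2 values, used as an alternative, and per the submitters' processing notes used limma.

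Here control spots (3671 of 62976) were left out, outlier spots were set to missing (182 values among the 6 arrays) and the spots of each of 56605 probes were averaged. The 28508 probes well above background on at least 2 of 3 arrays of 1 group were tested, and each of 19506 genes is given by its tested probe of highest mean. 6268 genes have several, and counts over lists cover the members that passed this filter. A single limma 3.58.1 fit in R 4.3.3 held all 15 arrays, with group as the only term (residual degrees of freedom 10, prior 1.64); tests were two-sided with Benjamini-Hochberg adjustment over all genes. An exact permutation test of 3 against 3 arrays cannot give a p below 0.1. The script was tested on simulated data.

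The comparison, the 32 gene lists, the 30 key genes and the named genes (the 12 largest rises and falls, the 6 largest bounds each way, key genes, up to 4 called members a list and direction, uncalled members where 5 or fewer, and the 6 largest differences from DEX each way) were chosen with earlier results of these data known. Not every gene of the rule is printed, and the single-gene results of 3 key genes are not reported here; they stay in all fits and lists.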

Additional observations from a re-analysis of the deposited data

How the results depend on the processing

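Against vehicle, 8238 genes were called; 1062 were called with terms for slide and position, 4716 with median scaling, and 7116 to 7610 on leaving out 1 array. Against DEX, 807 were called; 1522 were called with slide as a fixed block, 72 with slide and position, 309 with the replicate number as a block, 2 with median scaling, 508 with normexp background correction and quantile normalization (300 higher and 208 lower), 379 in the deposited value table (223 and 156), 111 without a filter on dim probes and 131 to 641 on leaving out 1 array. The lowest of these was without DEX replicate 3, and the counts were 188, 139 and 217 without FF replicates 1, 2 and 3 and 192 without DEX replicate 1.

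Same-numbered FF and vehicle arrays did not deviate together (r = -0.01, -0.10 and 0.22), so the numbers were not taken as pairs; a fit with the replicate number as a block called 7699 genes against vehicle. Of 4851 values of 231 named results under alternatives, 4651 kept direction and call, 174 lost the call, 25 gained it and 1 changed sign: H2bc18 against vehicle was -1.39 in the mean over its probes. Of the 174, 77 came with slide and position and 30 with median scaling. List counts were compared only in the direction in which a list had more calls. Of 672 such counts, 621 stayed within 1.5 times, and without the position model it was all but 20 of 640. List medians turned sign under an alternative in 8 cases, in 2 lists. The cause of these losses and changes was not tested. Signals near background limit the measurement of dim genes, and slide cannot be separated from FF.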

Other observations

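Probes of a gene did not always move together, and a value speaks for the probe used; the genes here were picked after their values were seen. For Kif2c, a mitotic kinesin not called at 0.21 ± 0.31, another probe changed by 3.45. For Ly96, the MD-2 partner of Toll-like receptor 4, the probe used rose by 0.94 ± 0.16 and another changed by -0.86. For Rad51ap1, among the 12 largest rises at 3.82, another probe changed by -1.07. For E2f7, an E2F repressor at least 8.47-fold higher with FF, another probe changed by -0.52.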
